A study of Mus musculus with 8 samples.

Results

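The enzymes that break down superoxide and peroxides were examined together with cytoglobin in stromal cells of a mouse melanoma. The set comprised 10 genes out of 53801 in the count table: the glutathione peroxidases Gpx1, Gpx3, Gpx4, Gpx7 and Gpx8, the superoxide dismutases Sod1, Sod2 and Sod3, catalase (Cat) and the globin Cygb. They were found by symbol, each had 1 gene identifier, and all 10 received an adjusted p. Gpx3 and Sod3, whose proteins leave the cell, were kept apart from the 8 intracellular members.

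The cells came from MO5 tumours, grown from B16 melanoma cells that express ovalbumin, in adult C57Bl/6 mice at an early tumour stage. All the mice were ADAM12-GFP animals, in which a bacterial artificial chromosome with the control region of Adam12 drives GFP. Stromal cells that carried PDPN and PDGFRα, and neither CD45 nor CD31, were sorted by reporter into a GFP+ fraction (ADAM12+ cells) and a GFP- fraction (ADAM12- cells), and 4 RNA-seq libraries were made of each, so that the reporter state was the only labelled difference. GFP marks activity of the transgene and is not a direct readout of the ADAM12 protein. Replicates are mice by the general statement of the study's methods, whereas the labels tie no library to a mouse and do not say whether a GFP+ and a GFP- library shared one. P-values cover the spread between these libraries.

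Superoxide dismutases turn superoxide into hydrogen peroxide, in the cytosol and between the mitochondrial membranes (Sod1), in the mitochondrial matrix (Sod2) or in the extracellular matrix (Sod3). Catalase, in peroxisomes, and the glutathione peroxidase family then reduce the peroxide. Gpx1 is cytosolic and mitochondrial, Gpx4 reduces lipid peroxides within membranes, Gpx7 and Gpx8 reside in the endoplasmic reticulum, and Gpx3 circulates in plasma. Cygb is a haem protein of fibroblasts and related cells that binds oxygen and takes part in nitric oxide and peroxide chemistry.

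The glutathione peroxidases fall into a pair of chemical classes, which their coding sequences show. In Gpx1, Gpx3 and Gpx4 the catalytic residue is selenocysteine, encoded by a TGA that would otherwise end translation, and in Gpx7 and Gpx8 an ordinary cysteine codon stands at the aligned place. The coding sequences around it are printed below from the GENCODE M21 principal transcripts (GRCm38), 12 bases to either side, with the catalytic codon in capitals:
Gpx1, codon 47 of 201, + strand, chr9:108339439-108339465: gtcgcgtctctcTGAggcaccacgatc
Gpx3, codon 73 of 226, + strand, chr11:54907244-54907270: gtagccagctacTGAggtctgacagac
Gpx4, codon 73 of 197, + strand, chr10:80054725-80054751: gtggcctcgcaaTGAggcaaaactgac
Gpx7, codon 56 of 186, - strand, chr4:108403418-108403444: gtagctagcgaaTGTggcttcacagac
Gpx8, codon 79 of 209, - strand, chr13:113045649-113045675: gtggctagtgacTGCcgcttcacagac

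The 3 TGA codons are annotated as selenocysteine, so Gpx1, Gpx3 and Gpx4 need selenium, whereas Gpx7 and Gpx8 hold no in-frame TGA. The selenium-dependent class held both a member that rose in GFP+ cells (Gpx3) and one that fell (Gpx1), as the values below show.

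Promoter windows of 300 bases (250 before to 50 after the start, RefSeq on GRCm38.p6) were found for 8 members, in 11 windows because Gpx4 has several starts. Sod3 and Cygb had none. Both strands were searched, and no 2 matches of different motifs overlapped. The antioxidant response element TGACNNNGC was matched in Sod1 alone of the 8, and 12.4% of 32851 promoters hold it. The hypoxia core ACGTG was matched in Gpx1 and Gpx8 (19.6% of promoters), the NF-kB motif (GGGA and CC with any 4 bases between them) in Gpx1, Gpx4 and Cat (20.7%), and the AP-1 motif TGANTCA in 0 members (7.81%). The Sp1 motif GGGCGG was matched in 7 of the 8, all but Gpx8, against 35.7% of promoters. A member was counted when any of its windows matched, whereas the percentages count single windows, so the measures differ for Gpx4.

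Libraries held 883144 to 31666734 assigned reads, and GFP- replicate 3 was the shallowest. The sort was checked against its own markers: Pdgfra and Pdpn were higher in GFP+ cells (log2 fold change 1.32 ± 0.17 and 0.70 ± 0.21, SE; adjusted p = 1.93e-12 and 0.0134, DESeq2), and Adam12 was higher by 0.75 ± 0.24 (adjusted p = 0.0266). Ptprc and Pecam1, which encode CD45 and CD31, were detected at 119 to 1703 and 81.0 to 516 normalised counts and were not called. Of these 5 sort markers, DESeq2 called 3 higher, and edgeR called 2 higher and 0 lower. All 8 libraries also held melanocyte transcripts, and 14 of 15 melanocyte markers were called lower and 1 higher in GFP+ cells. The list took 0.314% to 0.973% of the counts in GFP- libraries and 0.0512% to 0.146% in GFP+ libraries. In these bulk samples, fewer cells of a type and less RNA per cell cannot be told apart.

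Of the 10 members, 3 were called higher (Gpx3, Cygb and Sod2) and 1 lower (Gpx1) in GFP+ cells by DESeq2 at an adjusted p under 0.05. Over all 15283 genes tested the same rule called 9.42%, with 4.66% higher and 4.76% lower. edgeR called the same 4 members, against 5.11% of all genes. In 5 members (these 4 and Gpx8) every library of one group lay above every library of the other, as it did in 12.3% of all genes in either direction. In 4 of the 5 the GFP+ libraries were the higher ones, against 6.37% of all genes. The mean DESeq2 normalised count was higher in GFP+ cells in 9 members, all but Gpx1, though as RPKM (below) Gpx7 and Sod1 were also slightly lower. The median log2 fold change was 0.99 over the 2 secreted members and 0.34 over the 8 intracellular members, beside -0.01 over all tested genes.

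**Figure D1:**
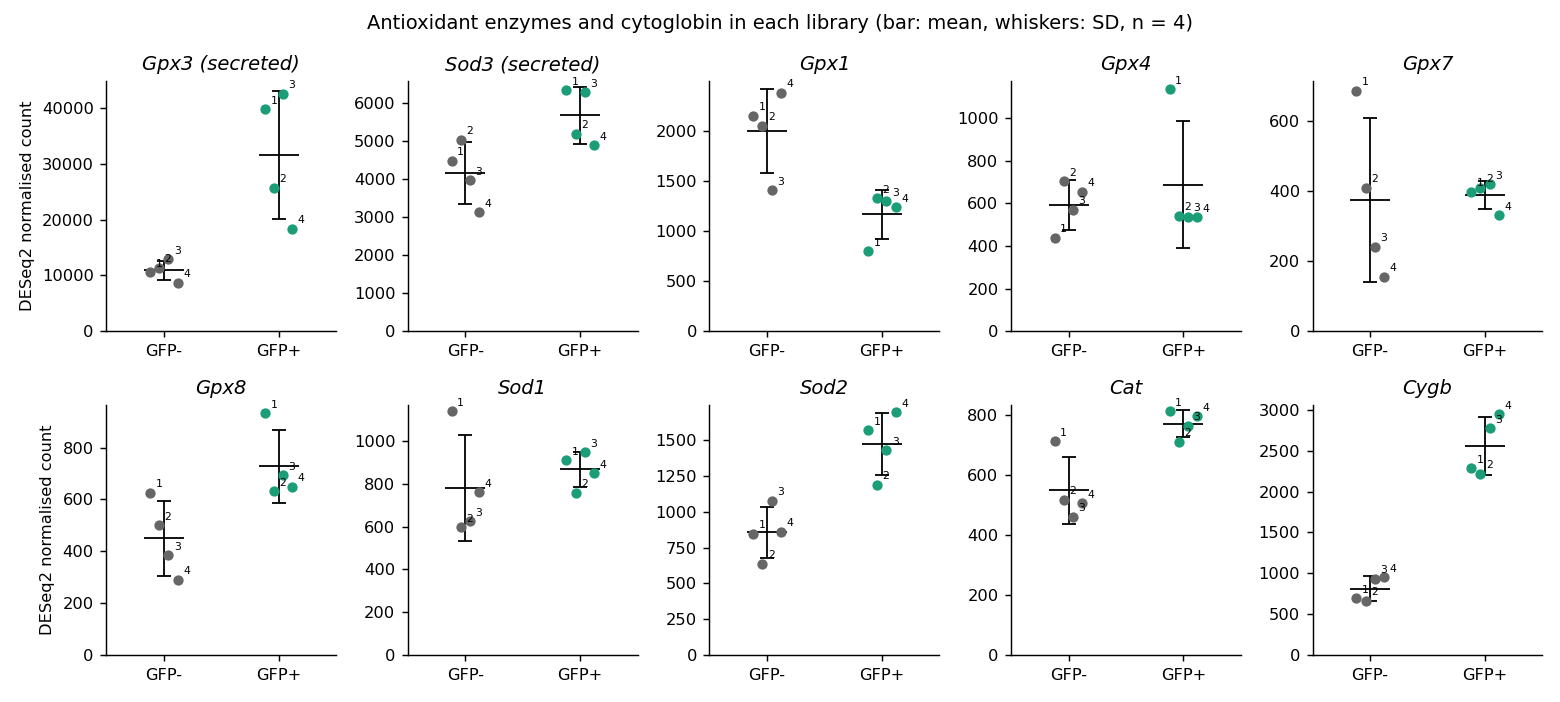
DESeq2 normalised count (vertical axes, linear from 0) of each member in the 4 GFP- and 4 GFP+ libraries, numbered by replicate, with the mean (bar) and SD (whiskers). The groups are apart in Gpx3, Cygb, Sod2, Gpx8 and Gpx1, with Gpx1 the one that is lower in GFP+ libraries.

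Among the secreted members, Gpx3 was the most abundant of the 10 and rose in GFP+ cells. Its normalised counts were 10545, 11398, 12943 and 8667 in GFP- replicates 1 to 4, and 39742, 25739, 42595 and 18337 in GFP+ replicates 1 to 4. Every GFP+ library was above every GFP- library, but GFP+ replicates 2 and 4 lay well below replicates 1 and 3, and the coefficient of variation was 36.4% in GFP+ against 16.4% in GFP- libraries. GFP+ exceeded GFP- by a log2 fold change of 1.54 ± 0.27 (SE, n = 4 per group), a 2.90-fold difference, with a 95% interval of 1.01 to 2.06 (adjusted p = 8.76e-07 by DESeq2, 0.00307 by edgeR). The call was lost under 1 of 21 other settings. That setting added a melanocyte marker score to the model (log2 fold change 0.10, adjusted p = 0.984 by DESeq2, described below). Gpx3 had been named by the study on these same libraries, so its direction is not independent evidence.

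Sod3, the superoxide dismutase that binds to the extracellular matrix, had normalised counts of 4488, 5035, 3966 and 3125 in GFP- replicates 1 to 4 and 6332, 5190, 6280 and 4897 in GFP+ replicates 1 to 4. Only GFP+ replicate 4 lay within the GFP- range. The log2 fold change of 0.45 ± 0.19 (95% interval 0.08 to 0.82) did not pass the threshold (adjusted p = 0.128 by DESeq2, 0.176 by edgeR).

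Among the intracellular members, Cygb had the largest change of the 10. It stood at 696, 661, 934 and 949 normalised counts in GFP- replicates 1 to 4 and at 2287, 2222, 2780 and 2950 in GFP+ replicates 1 to 4. The lowest GFP+ library was thus far above the highest GFP- library, and the spread within either group was small (coefficients of variation of 18.8% and 14.1%). This was a log2 fold change of 1.67 ± 0.20, or 3.19-fold (95% interval 1.29 to 2.06, adjusted p = 1.86e-14 by DESeq2 and 0.000741 by edgeR). Cygb overlaps Prcd on the opposite strand, and reads had been assigned by strand. It was the one member called under each of the 21 other settings, with adjusted p from 8.99e-27 to 0.0497.

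Sod2, the mitochondrial manganese enzyme, rose in GFP+ cells. It had 848, 638, 1077 and 861 normalised counts in GFP- replicates 1 to 4 and 1569, 1189, 1430 and 1695 in GFP+ replicates 1 to 4, so the groups did not overlap. The log2 fold change was 0.80 ± 0.21, or 1.75-fold (95% interval 0.40 to 1.21, adjusted p = 0.00253 by DESeq2 and 0.0230 by edgeR). Sod2 lost its call with a melanocyte marker score in the model (adjusted p = 0.853 by DESeq2). It also lost it with size factors from stromal markers (log2 fold change -0.09, adjusted p = 0.832) and when the log2 fold change had to reach 1. The cytosolic enzyme Sod1 had 1141, 598, 626 and 761 in GFP- and 912, 760, 949 and 852 in GFP+ replicates 1 to 4. All GFP+ values of Sod1 lay inside the GFP- range, and its log2 fold change was 0.14 ± 0.24 (95% interval -0.33 to 0.61, adjusted p = 0.823).

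Gpx1, the most abundant intracellular peroxidase in GFP- cells by length-scaled level, fell. Its normalised counts were 2150, 2051, 1406 and 2380 in GFP- replicates 1 to 4 and 798, 1325, 1298 and 1235 in GFP+ replicates 1 to 4. The groups did not overlap, although GFP- replicate 3, the shallowest library, was close to GFP+ replicate 2. The log2 fold change was -0.79 ± 0.23, or 0.580-fold (95% interval -1.24 to -0.34, adjusted p = 0.0104 by DESeq2 and 0.0468 by edgeR). The call rested in part on GFP- replicate 4, without which the adjusted p was 0.0681 (3.86e-05 to 0.981 over all 21 settings).

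Gpx4 had 438, 704, 571 and 654 normalised counts in GFP- replicates 1 to 4 and 1137, 543, 539 and 535 in GFP+ replicates 1 to 4. GFP+ replicate 1 stood apart, the other 3 GFP+ libraries agreed closely and lay inside the GFP- range, and the log2 fold change was 0.21 ± 0.30 (95% interval -0.39 to 0.81, adjusted p = 0.777). Without that library the estimate was -0.13. Reads of Gpx4 may also be exchanged with its pseudogene Gpx4-ps2, which received 268 reads over the 8 libraries against 7017 for Gpx4.

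Neither of the endoplasmic reticulum peroxidases was called. Gpx8 had 625, 499, 385 and 289 normalised counts in GFP- replicates 1 to 4 and 933, 633, 694 and 649 in GFP+ replicates 1 to 4, with the highest GFP- library just below the lowest GFP+ library. Its log2 fold change of 0.68 ± 0.28 (95% interval 0.14 to 1.22) was not called (adjusted p = 0.106 by DESeq2, 0.151 by edgeR). It was called when GFP- replicate 1 was left out (adjusted p = 0.0199, with 0.0199 to 0.999 over all 21 settings). Gpx7 had 688, 411, 242 and 155 in GFP- and 399, 411, 420 and 331 in GFP+ replicates 1 to 4, so that the GFP- libraries spread widely (coefficient of variation 62.7%) and enclosed all GFP+ values (10.3%). Its log2 fold change was 0.05 ± 0.40 (95% interval -0.74 to 0.83, adjusted p = 0.975), an interval that covers changes of either sign.

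Catalase had 714, 518, 461 and 506 normalised counts in GFP- replicates 1 to 4 and 814, 712, 765 and 796 in GFP+ replicates 1 to 4. GFP- replicate 1 was level with the lowest GFP+ library and the other 3 GFP- libraries were below all of them. The log2 fold change was 0.47 ± 0.19 (95% interval 0.10 to 0.84, adjusted p = 0.105 by DESeq2 and 0.167 by edgeR), and it passed the threshold only when GFP- replicate 1 was left out (adjusted p = 0.0143, with 0.0143 to 0.915 over all 21 settings).

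**Figure D2:**
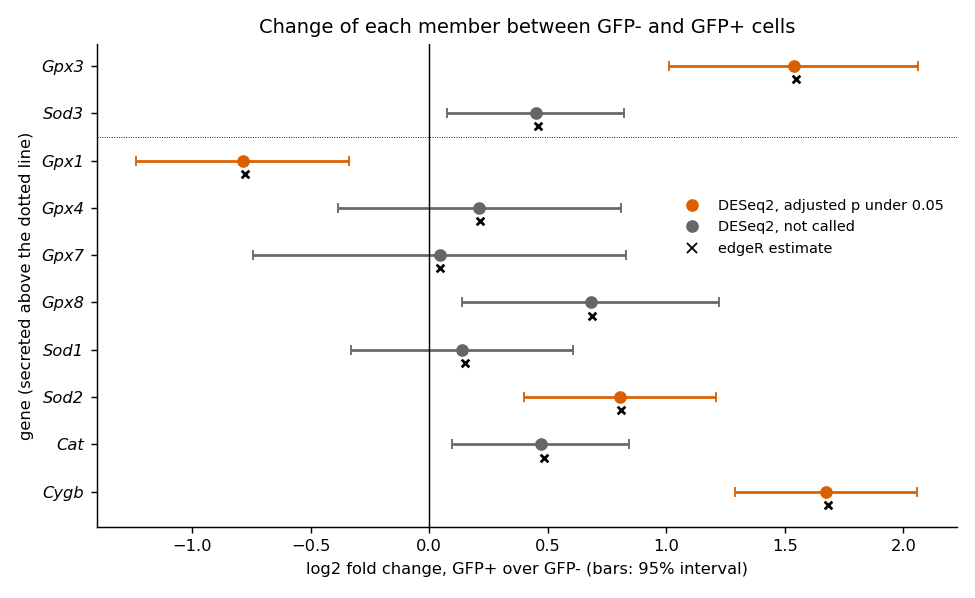
Log2 fold change (GFP+ over GFP-, horizontal axis) of each member by DESeq2 with its 95% interval, with the edgeR estimate as a cross under it. Cygb (1.67) and Gpx3 (1.54) lie farthest to the right, Sod2 (0.80) follows, and Gpx1 (-0.79) is the one interval wholly below 0.

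Levels were compared between genes as RPKM over merged exons. In GFP- cells the order was Gpx3 (605 ± 97.1, SD, n = 4), Gpx1 (140 ± 32.2), Sod3 (111 ± 17.1), Gpx8 (42.7 ± 11.2), Cygb (35.3 ± 8.63), Gpx4 (34.8 ± 7.99), Gpx7 (28.4 ± 16.2), Cat (21.1 ± 3.21), Sod1 (19.7 ± 5.45) and Sod2 (8.66 ± 2.05). Gpx3 stood clear of every other member, while Gpx1 and Sod3 overlapped each other, and so did each neighbouring pair from Gpx8 down to Sod1. In GFP+ cells the order was Gpx3 (1540 ± 489), Sod3 (135 ± 10.1), Cygb (98.7 ± 16.8), Gpx1 (73.2 ± 18.8), Gpx8 (61.7 ± 7.57), Gpx4 (35.2 ± 12.7), Gpx7 (27.1 ± 2.84), Cat (26.5 ± 1.50), Sod1 (19.6 ± 1.24) and Sod2 (13.2 ± 1.97). Cygb stood below Gpx1 and Gpx8 in GFP- cells and above both in GFP+ cells, where its range still overlapped that of Gpx1. This order depends on the length used. The merged exons of Sod1 span 3970 bases and its principal transcript 641, over which its level was 122 RPKM in GFP- and 121 RPKM in GFP+ cells. Over principal transcripts Gpx4 stood at 62.6 RPKM in GFP- cells, above Gpx8 (42.9) and Cygb (35.3), and in GFP+ cells Cygb (98.7) and Gpx1 (98.3) were level.

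The secreted enzymes made up 64.7%, 69.7%, 75.2% and 62.9% of the summed RPKM of the 10 genes in GFP- replicates 1 to 4. In GFP+ replicates 1 to 4 the share was 85.2%, 80.8%, 86.1% and 74.1%. The means were 68.1% ± 5.50 and 81.6% ± 5.49 (SD, n = 4), and the ranges touched, since GFP+ replicate 4 was below GFP- replicate 3. Gpx3 alone gave 57.5% ± 5.59 and 74.7% ± 6.72. The summed level of the 8 intracellular members was 331 ± 37.7 RPKM in GFP- and 355 ± 16.7 RPKM in GFP+ cells, so the share followed Gpx3 rather than a lower intracellular sum. Within that sum Gpx1 was lower and Cygb higher. The log2 ratio of Gpx3 to Gpx1, the secreted to the intracellular selenium peroxidase, was 2.29, 2.47, 3.20 and 1.86 in GFP- replicates 1 to 4 and 5.64, 4.28, 5.04 and 3.89 in GFP+ replicates 1 to 4, with no overlap. The log2 ratio of Sod3 to Sod1 ran from 1.98 to 3.07 in GFP- and from 2.52 to 2.80 in GFP+ libraries, inside the GFP- range. These shares and ratios are descriptions without a test.

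**Figure D3:**
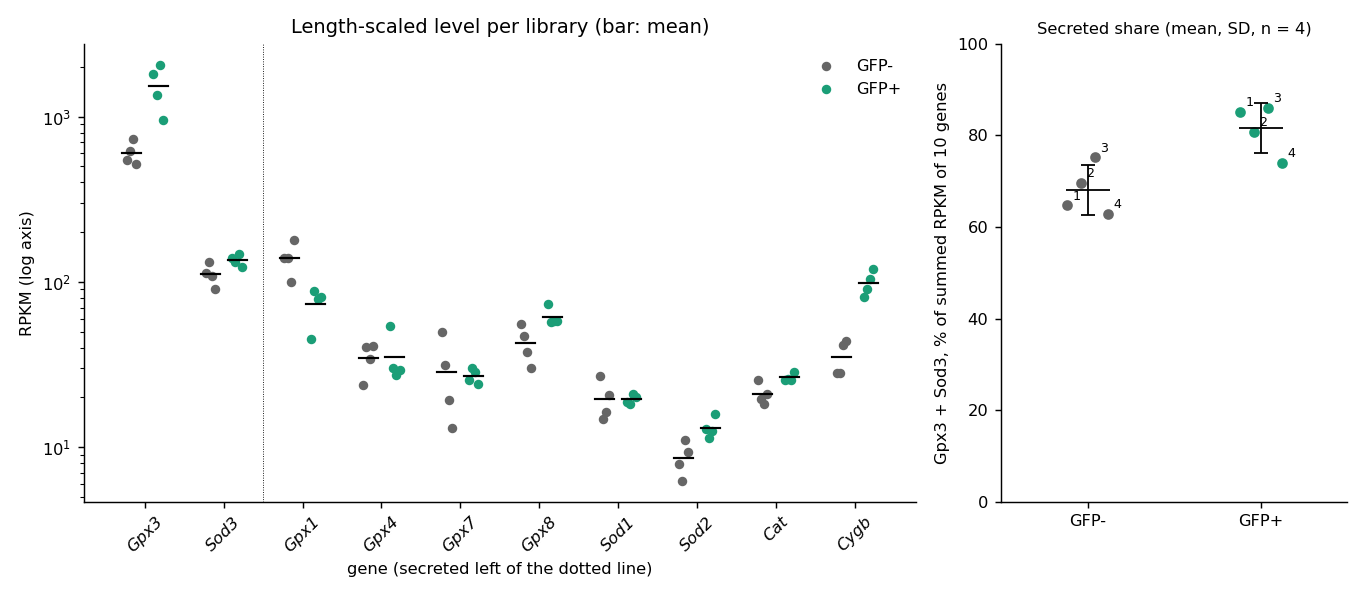
Left, RPKM of each member per library (log axis) with the group mean as a bar; right, percent of the summed RPKM of the 10 genes that comes from Gpx3 and Sod3 (linear axis from 0 to 100), with mean and SD. Gpx3 lies above all other members in both groups, and the secreted share is 68.1% in GFP- and 81.6% in GFP+ libraries.

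The melanocyte markers moved with these results and are given beside them. The melanocyte score of a library, the mean log2(normalised count + 1) over the 15 markers, was 10.7, 10.8, 9.96 and 11.3 in GFP- replicates 1 to 4 and 6.66, 8.44, 7.51 and 8.93 in GFP+ replicates 1 to 4. Gpx3 was highest in GFP+ replicates 1 and 3, which had the lowest scores, and lowest in GFP- replicate 4, which had the highest. Cygb had its highest count in GFP+ replicate 4, the GFP+ library with the highest score. With the score added to the model, 56 genes in all were called. The log2 fold change of Cygb was then 1.87 ± 0.43 (adjusted p = 0.0104), that of Gpx3 0.10 ± 0.35 (adjusted p = 0.984), that of Sod2 0.63 ± 0.46 (adjusted p = 0.853) and that of Gpx1 0.12 ± 0.40 (adjusted p = 0.981). Because the score did not overlap between the groups, the reporter state and the melanocyte share cannot be told apart for any gene. This includes Cygb, whose kept call in this fit does not separate them. The sorted stromal markers also moved: 6 of 9 were called higher and 0 lower, with a median log2 fold change of 0.80, near that of Sod2 and below those of Gpx3 and Cygb. When libraries were scaled on these 9 genes, the median of all genes shifted to -0.89, Gpx3, Cygb and Gpx1 kept their calls (log2 fold changes of 0.66, 0.76 and -1.66) and the other 7 members, all above 0 before, stood below 0, with Sod2 at -0.09 and Sod1 called lower at -0.71 (adjusted p = 0.0350, with 0.0350 to 0.998 over all 21 settings). Relative to the shifted median all 10 members had the sign they had before, for example Sod2 at 0.80 and Sod1 at 0.17, which follows from a scaling that moves most genes alike and is no test of the members.

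**Figure D4:**
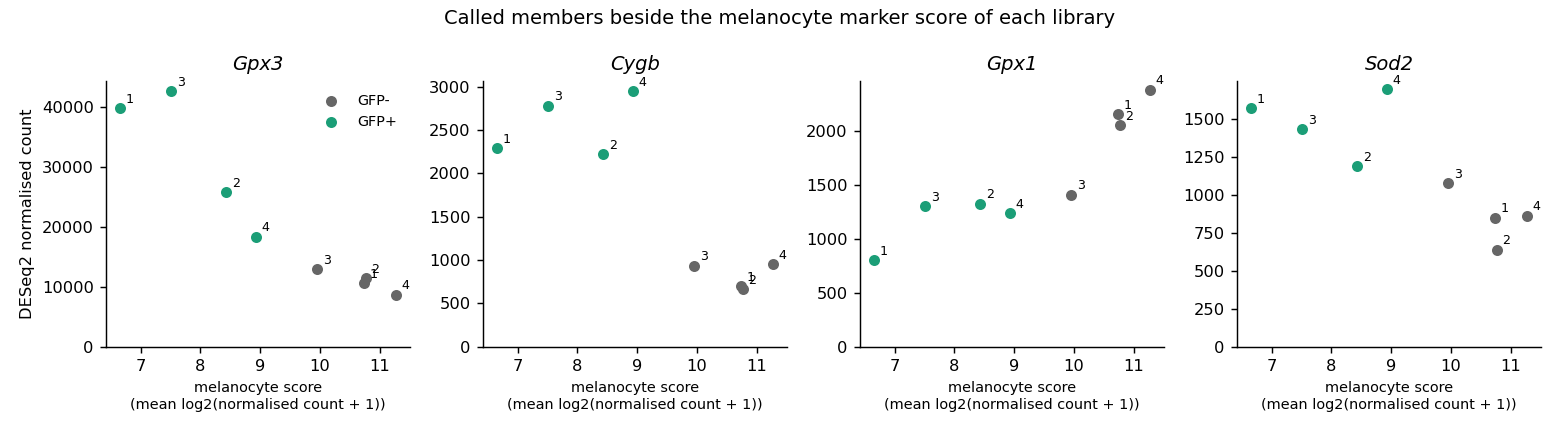
DESeq2 normalised count of the 4 called members (vertical axes, linear from 0) against the melanocyte score of each library (horizontal axis, mean log2(normalised count + 1) over 15 markers), numbered by replicate. GFP+ libraries have scores of 6.66 to 8.93 and GFP- libraries 9.96 to 11.3. Gpx3 is lower in GFP+ replicates 2 and 4, which have the higher GFP+ scores, than in replicates 1 and 3. Cygb is highest in GFP+ replicate 4.

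Other cell types were followed by their own lists. Of 10 adipocyte genes 5 were tested, with a median log2 fold change of 1.74, and 2 were called higher by both tools and 0 lower, Lpl (1.74 ± 0.22) and Fabp4 (2.10 ± 0.55), both named after their values were seen. The summed list stood at 2123 to 2738 normalised counts in GFP- and 6486 to 11521 in GFP+ libraries, while the defining adipocyte genes Adipoq, Cfd and Plin1 had at most 4.03, 2.94 and 18.4 normalised counts in any library and Retn had 0. No gene of the leukocyte list was called by DESeq2 or edgeR (12 tested, 0 with an unadjusted p under 0.05). Of 8 endothelial genes tested 1 was lower, of 8 pericyte genes 1 was higher and 1 lower, and of 6 Schwann cell genes 1 was higher and 4 lower by DESeq2. By edgeR 1 endothelial gene was lower, 0 pericyte genes were higher and 1 lower, and 1 Schwann cell gene was higher and 1 lower. No keratinocyte (5 tested, 1 with an unadjusted p under 0.05) or skeletal muscle gene (3 tested, 0 such) was called by DESeq2 or edgeR, and 1 of 6 erythroid genes was lower. The part of these cells in the members' values was not tested.

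Related pathways were read from lists drawn up by gene function, though with earlier results of these data known. Of 171 such genes 149 were tested, 17 were called higher and 12 lower, and their median log2 fold change was 0.06. The percentage called over all genes was 9.42%, as above. With the melanocyte score in the model, 1 gene of the oxidant-producing list and 0 genes of each other list were called. Because the score did not overlap between the groups, the reporter state and the melanocyte share cannot be told apart for the pathway calls below. This holds whether or not a call was kept.

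Selenium supply is what Gpx1, Gpx3 and Gpx4 share. In the list of selenoproteins and selenocysteine machinery, 3 of 26 tested genes rose and 3 fell. Selenop, the secreted selenium carrier, had 3316 to 5320 normalised counts in GFP- and 7769 to 9819 in GFP+ libraries, without overlap (log2 fold change 1.00 ± 0.19, adjusted p = 6.86e-06). Selenof (0.69 ± 0.22) and Selenow (0.51 ± 0.18) also rose. The genes that fell were Lrp8, a receptor for the carrier (-1.92 ± 0.61), Eefsec, the elongation factor that brings selenocysteine to the ribosome (-1.54 ± 0.35), and Scly, which frees selenium from selenocysteine (-1.13 ± 0.31). The secreted selenoproteins Gpx3 and Selenop were thus both higher in GFP+ cells, while Lrp8, Eefsec and Scly were lower. edgeR called Selenop, Eefsec and Scly.

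Glutathione is the reducing agent of most of these peroxidases. In the list of its synthesis and recycling, 2 of 16 tested genes rose and 3 fell. Ggt5, an enzyme that cleaves extracellular glutathione and its conjugates, had 411 to 824 normalised counts in GFP- and 1261 to 3074 in GFP+ libraries (1.86 ± 0.31, adjusted p = 1.47e-07), and Oplah, which returns oxoproline to glutamate, rose by 0.99 ± 0.35. Chac1, which degrades glutathione in the cytosol (-3.29 ± 0.89), Ggt7 (-1.55 ± 0.42) and Glrx5, a mitochondrial glutaredoxin (-0.88 ± 0.31), fell. By edgeR, Ggt5 alone of these 5 was called. Among the glutathione transferases, which attach glutathione to electrophiles, 3 of 20 tested rose and 1 fell. These were Gstt1 (1.60 ± 0.41), Gstm1 (1.06 ± 0.29) and Gstm2 (1.05 ± 0.23) and, lower, Gsta4 (-2.17 ± 0.51), and edgeR called all 4. Gpx2, Gpx5 and Gpx6, the remaining peroxidase genes of the family, had at most 1.05 normalised counts in any library.

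The parallel peroxide system of peroxiredoxins and thioredoxins held 1 called gene among 18 tested, Prdx5 (0.60 ± 0.19, adjusted p = 0.0249), which edgeR did not call. Txnip, the thioredoxin inhibitor, was not called (0.62 ± 0.30, adjusted p = 0.209).

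Transcription factor NRF2, encoded by Nfe2l2 and held back by Keap1, is the main inducer of antioxidant genes. Of its regulators and targets 4 of 26 tested rose and 1 fell. The genes that rose with the largest changes were the NRF2 partners Mafk (0.80 ± 0.25) and Maff (0.59 ± 0.20) and G6pdx, which supplies NADPH (0.65 ± 0.23). The ferritin heavy chain Fth1 rose as well (0.58 ± 0.15, 5878 to 6868 normalised counts in GFP- and 8116 to 10933 in GFP+ libraries) and the only one of the 5 that edgeR called. Aldh3a1, an aldehyde dehydrogenase, fell (-3.07 ± 1.01). Nfe2l2 itself did not overlap between the groups but was not called (0.45 ± 0.19, adjusted p = 0.116), nor were Keap1 (0.32 ± 0.34), Hmox1 (0.24 ± 0.21) and Nqo1, which had at most 29.3 normalised counts.

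Sod1 and Sod3 hold copper. In the list of copper supply and metallothioneins, 2 of 9 tested genes rose and 0 fell: Cp, the copper ferroxidase ceruloplasmin, with 446 to 846 normalised counts in GFP- and 1170 to 1752 in GFP+ libraries (1.40 ± 0.24, adjusted p = 7.67e-07), and the metallothionein Mt2 (0.91 ± 0.29, adjusted p = 0.0246), of which edgeR called Cp alone. Ccs, the copper chaperone of Sod1 (0.09 ± 0.59), and Atp7a, which loads copper into secreted enzymes such as Sod3 (-0.46 ± 0.23, adjusted p = 0.227), were not called.

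Among the enzymes that produce oxidants, 2 of 23 tested rose and 3 fell. Nos1, a nitric oxide synthase (2.77 ± 0.85), and Xdh, the xanthine dehydrogenase (0.38 ± 0.12), rose. Duox2 (-5.95 ± 1.45) and Duox1 (-1.54 ± 0.49), which make hydrogen peroxide at the cell surface, and Ero1l (-0.79 ± 0.25), which makes it in the endoplasmic reticulum where Gpx7 and Gpx8 act, fell. Of these 5, edgeR called Duox2 alone. The Duox2 value rested on GFP- replicates 1 and 2, with 929 and 883 normalised counts against 11.0 and 13.7 in replicates 3 and 4. Nox4, the main NADPH oxidase of fibroblasts, was not called (0.17 ± 0.30, adjusted p = 0.826). Of 6 other globins tested, 0 rose and 1 fell, Adgb (-2.50 ± 0.68), which edgeR did not call and which lost its call without GFP- replicate 4. Of 14 peroxisome assembly genes tested, which serve the organelle of catalase, 0 were called by DESeq2 or edgeR and 1 had an unadjusted p under 0.05.

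**Figure D5:**
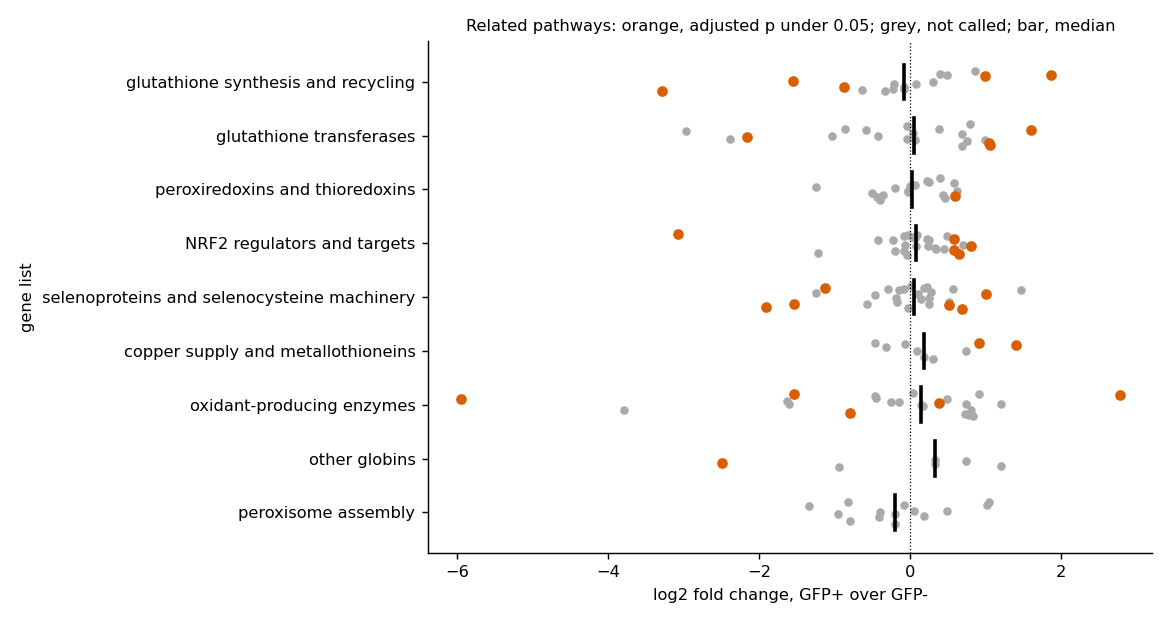
Log2 fold change (GFP+ over GFP-, horizontal axis) of every tested gene in 9 lists related to the members, with called genes in orange, others in grey and the list median as a bar. Medians lie between -0.20 and 0.32, beside -0.01 for all genes, and called genes stand on both sides of 0 in 5 of the 9 lists.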

How the data were processed

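The samples were 8 RNA-seq libraries, 4 GFP+ and 4 GFP-, grouped by their labels and made with the SMARTer Pico kit for stranded total RNA. The authors trimmed adapters with cutadapt 3.4, mapped reads with STAR 2.7.3a to GRCm38 and assigned them to Ensembl genes by strand with featureCounts 2.0.1, so that reads shared by near-identical copies can be lost.

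The authors deposited 1 table with a raw count per gene and library, which is the base of every value here. Beside it stands a normalised score that the authors deposited for each gene (the count divided by the DESeq2 size factor, rounded), which was used to check the size factors, and their own fold changes, p-values and means, which were not used. Per-sample columns left unused numbered 0.

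Genes were fitted in R 4.3.3 with DESeq2 1.42.0, with group as the only term and two-sided Wald tests. P-values were adjusted by Benjamini-Hochberg over 15283 genes, called at under 0.05, and intervals are 1.96 SE. RPKM used the total count and GENCODE M21 merged exon lengths. Other settings used edgeR 4.0.16 (quasi-likelihood, TMM), limma 3.58.1 (voom), other size factors, filters and thresholds, libraries thinned to 883144 reads, the melanocyte score as a covariate, a replicate block and each library left out in turn. Size factors from stromal markers and other lengths or units for the secreted share were added after seeing the data. The code was tested on simulated data, in which DESeq2 recovered more of the changed genes than edgeR and also made more false calls. Replicates differed by 9.68 to 73.0 in chi-square per degree of freedom, so none was a repeat deposit. Reads were not collapsed to molecules, and GFP- replicate 3, with 883144 reads, gave the least precise counts.

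Members and lists were chosen with earlier results of these data known. All 10 members were named, and in each pathway list up to 3 called genes per direction by absolute log2 fold change, plus Txnip, Selenop, Ccs, Atp7a, Nfe2l2, Keap1, Hmox1, Nqo1, Nox4 and the sort markers. Fth1, Lpl, Fabp4 and the other adipocyte genes were named after their values were seen. Catalytic codons were read from GENCODE M21 transcripts, with Biopython 1.88 for the alignment. Protein sequences were not used here.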

Additional observations from a re-analysis of the deposited data

Results flagged for a closer look

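Of 20 sets of 4 libraries (10 members in each group), 1 held a library far from the rest, where chance alone flags about 1 in 20. Gpx4 had a normalised count of 1137 in GFP+ replicate 1, and its gap to the next library was 0.988 of the range of the group, above the critical value of 0.829 for 4 samples. The other 3 GFP+ libraries had 535 to 543. The same library had the highest GFP+ values of Gpx8, Sod3 and Cat and the lowest of Gpx1.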

How the results depend on the processing

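The calls and log2 fold changes were recomputed under 21 other settings, and the secreted share under other lengths, another unit and each library left out. The single RPKM levels and log2 ratios between members were not recomputed this way. Cygb was called under all of them and Gpx3 under all but the melanocyte covariate. Gpx1 lost its call with that covariate, without GFP- replicate 4, at an adjusted p under 0.01 and when the log2 fold change also had to reach 1. Sod2 lost its call with the covariate, with stromal marker size factors and at that minimum fold change. Gpx8 gained one with the block and without GFP- replicate 1, and Cat without GFP- replicate 1. Sod1 was called lower with stromal marker size factors (adjusted p = 0.0350). The cause of these changes was not tested.

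With the melanocyte covariate the secreted members called fell from 1 to 0 and the intracellular from 3 to 1, and oxidant enzymes from 5 to 1. Glutathione synthesis (5), transferases (4), peroxiredoxins (1), NRF2 (5), selenoproteins (6), copper (2) and other globins (1) all went to 0. Log2 fold changes turned to -0.065 for Sod3, 0.12 for Gpx1, -0.81 for Gpx4 and -0.27 for Gpx7. With size factors from the 9 stromal markers, which moved the median of all genes to -0.89, calls were 10 in glutathione synthesis, 10 in peroxiredoxins, 14 in NRF2, 11 in selenoproteins, 8 in oxidant enzymes and 3 in peroxisome assembly (0 before). Log2 fold changes then stood at -0.39 for Sod3, -0.72 for Gpx4, -0.69 for Gpx7, -0.13 for Gpx8, -0.71 for Sod1, -0.089 for Sod2 and -0.37 for Cat, and relative to the shifted median each of the 10 members had its sign from before, as a nearly uniform shift implies.

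edgeR called 732 genes against 1439, with 1 in glutathione synthesis, 0 in peroxiredoxins, 1 in NRF2, 3 in selenoproteins, 1 in copper, 1 in oxidant enzymes and 0 in other globins. limma voom called 1 in copper and 1 in oxidant enzymes and put Gpx4 at -0.0072. A minimum mean of 10 counts left 3 in glutathione synthesis. No independent filtering left 3 there and 2 in NRF2. Thinning left 1 in glutathione synthesis, 0 in peroxiredoxins, 2 in NRF2 and 2 in oxidant enzymes. An adjusted p under 0.01 left 3 in glutathione synthesis, 0 in peroxiredoxins, 1 in NRF2, 3 in selenoproteins, 1 in copper and 1 in oxidant enzymes. A log2 fold change required to reach 1 left 1 intracellular member (Cygb), 3 in glutathione synthesis, 0 in peroxiredoxins, 1 in NRF2, 3 in selenoproteins, 1 in copper and 3 in oxidant enzymes. The secreted share in GFP- libraries was 60.6% in place of 68.1% with principal transcript lengths.

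Leaving out 1 library at a time gave 2 to 5 intracellular members (5 without GFP- replicate 1), 1 to 6 in glutathione synthesis, 0 to 2 in peroxiredoxins, 1 to 5 in NRF2, 2 to 6 in selenoproteins, 1 to 2 in copper, 0 to 7 in oxidant enzymes and 0 to 1 in other globins. Over these fits the log2 fold change of Gpx4 ran from -0.13 to 0.31 and that of Gpx7 from -0.24 to 0.52, below 0 without GFP- replicate 3 or 4. Whether the replicate numbers pair the libraries was not settled by their correlations (same-number correlations of -0.15 to 0.24, 2 of 4 pairs above 0.1, 2 of 4 libraries closest to their own number). The replicate block called 1470 genes, 4 intracellular members with Gpx8 at an adjusted p of 0.0227, 1 secreted member and 3 in glutathione synthesis, and changed no other member's call. Depth limited mainly GFP- replicate 3, at 883144 reads.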
